A study of Mus musculus with 9 samples.

Results

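The regions described here are the Argonaute-bound stretches of mouse liver RNA that hold a match to the seed of miR-103 and miR-107 and no match to miR-122. Of 92645 bound regions in the deposited table, 9059 held a miR-103/miR-107 seed match in the authors' assignment. The 461 that also held a miR-122 match were left out, which leaves 8598 miR-103/miR-107 regions. A miR-122 match means one to miR-122-5p throughout. Of the 8598 regions, 54 held a match to miR-122-3p and were kept. Argonaute (AGO) is the protein that carries a microRNA to its target RNA, and CLIP-seq crosslinks RNA to a protein with UV light, isolates the protein with an antibody and sequences the RNA fragments bound to it. Livers of 4 miR-122 KO mice (KO replicate 1 female, replicates 2 to 4 male) were set against livers of 5 floxed littermate controls (3 female, 2 male), all 6 weeks old, with 1 library per mouse and an antibody against all AGO proteins. The labels do not say how the floxed gene was deleted in KO livers. Because whole livers were used, fewer cells of a type and less RNA per cell cannot be told apart.

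MicroRNAs pair with target RNAs through bases 2 to 8, the seed, and the bound AGO protein lowers translation and stability of the RNA. miR-103 and miR-107 share one seed and are encoded in introns of pantothenate kinase genes, whose enzymes start coenzyme A synthesis. In mouse liver the pair is known for its link to insulin sensitivity, and among its known targets is Dicer1, the enzyme that cuts microRNA precursors. miR-122 is the most abundant microRNA of hepatocytes, so its deletion removes the largest single guide from liver AGO.

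The mature sequences, printed from RefSeq (GRCm38.p6) with the seed in capitals, show why the family's regions overlap with those of another family. miR-103-3p and miR-107-3p differ at 1 base, G22C counted from the 5′ end, outside the seed. The seed of miR-16 and its relatives is the same run of letters moved by 1 base.
miR-103-3p: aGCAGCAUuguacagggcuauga
miR-107-3p: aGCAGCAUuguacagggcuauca
miR-16-5p: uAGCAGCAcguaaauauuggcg
miR-15a-5p: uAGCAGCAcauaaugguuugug
miR-195a-5p: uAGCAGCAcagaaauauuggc
In target RNA written as DNA, the full miR-103/miR-107 site is the 8mer ATGCTGCA, the 7mer-m8 site is ATGCTGC, the 7mer-A1 site is TGCTGCA and the 6mer core is TGCTGC. The 6mer core of the miR-15/16 family is GCTGCT, so the letters TGCTGCT serve both families.

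Sites inside the RefSeq promoter table could be read letter by letter, and all 56 such sites of 36 miR-103/miR-107 regions read as the 6mer core. The 4 stretches of 30 bases that follow (GRCm38.p6, minus strand) lie in 5′ UTRs. They were chosen to show an isolated site, a site shared with miR-15/16 and sites within a repeat. Capitals mark 1 miR-103/miR-107 site of each region, and further cores in the Dbi, Siglece and Pcolce stretches are not marked.
G3bp2 chr5:92083578-92083607: gggaggagaatcTGCTGCggccgatcccgc
Dbi chr1:120120989-120121018: tgacttgattgcTGCTGCttctgagcttgc
Siglece chr7:43660114-43660143: tttagctggacATGCTGCtgttgctgctgc
Pcolce chr5:137611371-137611400: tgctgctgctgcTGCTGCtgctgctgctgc
The region of G3bp2, a stress granule protein, had a site for miR-103/miR-107 alone. That of Dbi, the acyl-CoA binding protein, had a site for both families. The region of Siglece, a lectin of myeloid cells, held 6 sites. The region of Pcolce, which enhances procollagen processing, held 10 sites in a run of GCT repeats.

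Shared letters were the rule among the miR-103/miR-107 regions. A miR-15/16 match was present in 5387 regions (62.7%), against 4.40% of the regions with neither a miR-122 nor a miR-103/miR-107 match. In 4945 of them (91.8%) a miR-15/16 core began exactly 1 base after a miR-103/miR-107 core. The family overlap was therefore one of letters, and reads at such a site cannot be assigned to either family. The next family by share was miR-29, whose match stood in 812 regions (9.44%, against 5.82% of those other regions), while let-7 matches were found in 305 (3.55%, against 8.16%).

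Most miR-103/miR-107 regions held a single, short match. The longest match was a 6mer in 5281 regions, a 7mer-A1 in 1370, a 7mer-m8 in 1526 and an 8mer in 421. One site was present in 7432 regions, 2 in 847, 3 in 169 and 4 or more in 150. Of 1916 neighbouring pairs of sites within a region, 1441 (75.2%) lay 3 bases apart, the period of a GCT repeat. The most sites were the 26 in an intron of Dync1i1, which encodes a dynein chain, where the level was low in both groups (means of 1.53 CPM in KO and 2.66 CPM in control livers; CPM is the count scaled to a library total of 1e6).

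Coding sequence held more miR-103/miR-107 regions than the 3′ UTR did. The file placed 3753 (43.6%) in coding sequence, 2786 (32.4%) in 3′ UTRs, 625 (7.27%) in 5′ UTRs and 430 (5.00%) in introns. Over all regions without a miR-122 match the shares were 37.2% in coding sequence, 33.7% in 3′ UTRs, 4.28% in 5′ UTRs and 10.1% in introns. The regions with a usable gene name lay in 5329 genes, of which 1707 had 2 or more. Grn, which encodes progranulin, had 9 regions, all in coding sequence, and Ubr4, a ubiquitin ligase, had 9, of which 8 were in coding sequence.

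**Figure D1:**
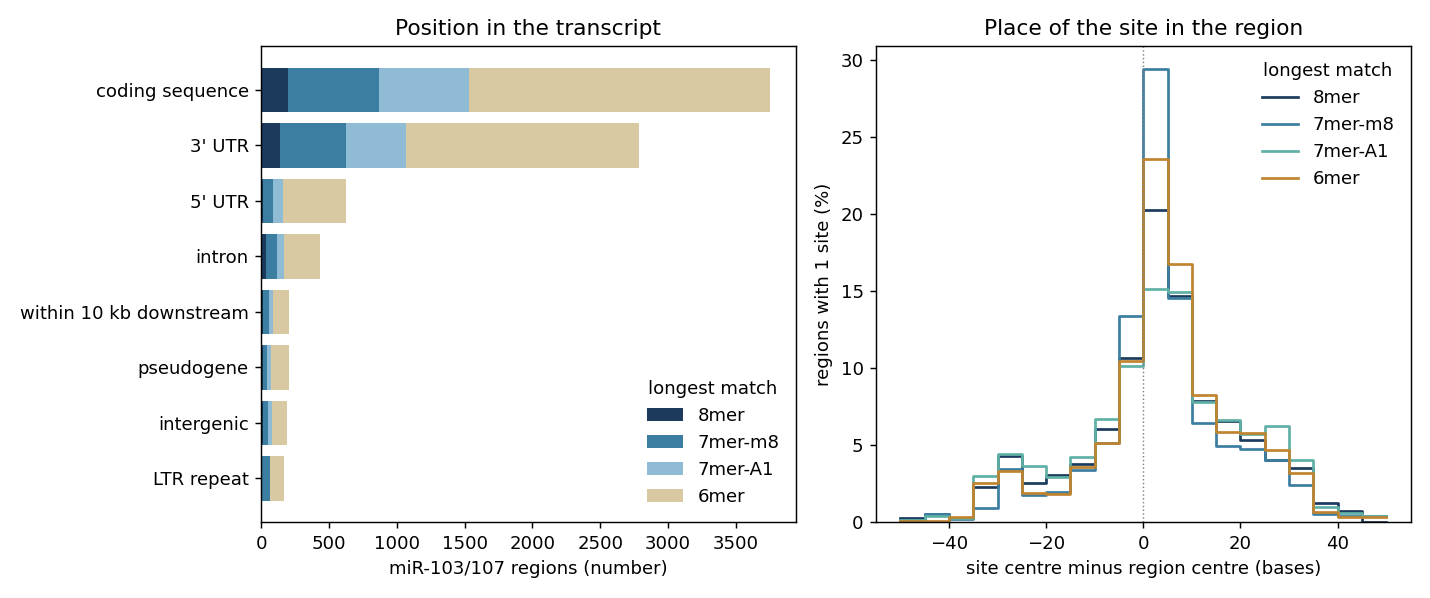
Left, miR-103/miR-107 regions by position in the transcript, with bar segments for the longest seed match; coding sequence (3753) and the 3′ UTR (2786) hold most of them, and the 6mer is the largest segment in each. Right, the distance in bases from the centre of the region to the centre of the site, positive towards the 3′ end, for regions with 1 site, as a percentage of the regions of each match class; all 4 classes peak just past the centre.

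The site lay near the middle of the bound stretch, whose median width was 70 bases. Among regions with 1 site, the site centre was within 10 bases of the region's centre in 53.9% of 8mer, 63.9% of 7mer-m8, 48.4% of 7mer-A1 and 57.9% of 6mer regions. Site length therefore did not order the share. For 6mer regions the share was 62.6% where a miR-15/16 match was present and 46.3% where it was absent.

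Longer matches were more often conserved in the 3′ UTR. The authors' conservation score, the mean phyloP over the 6mer, was at least 1 in 57.2% of 138 8mer, 51% of 7mer-m8, 44.5% of 7mer-A1 and 42.9% of 6mer regions of the 3′ UTR. In coding sequence, where the code itself is conserved, the shares were 76.0%, 73.9%, 78.4% and 72.0% in the same order of match class. These shares are descriptions, since the scores of neighbouring bases and of regions in one gene are not independent.

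Library totals were 612479 to 1070610 counts in KO and 445912 to 1170130 in control livers. Summed over 12 neuron marker genes, the level was 1975 to 8301 CPM in KO livers, highest in KO replicate 4, against 38.9 to 54.7 CPM in control livers, where 6 of the 12, among them Rbfox1, Syn1, Stmn2, Gria2 and Celf4, had no count. Glia markers summed to 700.5 to 1971 CPM in KO and 271 to 466 CPM in control livers, where Gfap and Mbp had no count. Hepatocyte markers summed to 19591 to 28455 CPM in KO and 32082 to 39914 CPM in control livers, and none of the 10 was at 0 in either group. Hepatocyte RNA was thus present in both groups, while the labels do not account for the neuron markers in KO livers. Cholangiocyte markers summed to 73.1 to 112 CPM in KO and 13.2 to 36.2 CPM in control livers. The ranges of endothelial and red cell markers overlapped between the groups. Stellate cell and fibroblast markers summed to 1091 to 1961 CPM in KO and 601 to 746 CPM in control livers, and macrophage markers to 341 to 692 and 275 to 347 CPM. The part of these differences in the results on miR-103/miR-107 regions was not tested. The values without KO replicate 4 given below cannot test it, since KO replicates 1 to 3 still held 1975, 2198 and 2601 CPM of neuron markers.

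The precursors of the family can be followed only where a bound region covers a hairpin. A region over the Mir103-2 hairpin (chr2:131288080-131288149, mm10, plus strand; placed by the file within 10 kb downstream of Pank2) held 25.8, 67.2, 70.1 and 71.8 CPM in KO replicates 1 to 4. The 5 control livers held 42.3, 42.6, 23.7, 47.0 and 51 CPM. The groups overlapped, and the region did not pass the test (log2 0.14, SE 0.32, adjusted p = 0.757). None of the regions lay over the Mir103-1 or Mir107 hairpin.

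The miR-103/miR-107 regions took a somewhat larger share of all AGO-bound counts in KO livers, but a smaller share of the counts that were not at miR-122 matches. They held 11.7, 11.4, 12 and 9.92% of the counts in KO replicates 1 to 4, a mean of 11.3% ± 0.934 (SD, n = 4). In control replicates 1 to 5 they held 9.45, 10.6, 9.41, 9.28 and 9.88%, a mean of 9.72% ± 0.526 (SD, n = 5). KO replicates 1 to 3 lay above every control, and KO replicate 4 lay within the control range. The 2 H19 regions made up 0.849% ± 0.0931 of counts in KO and 0.0156% ± 0.0156 in control livers, and without them the shares were 10.4% ± 0.902 and 9.70% ± 0.518. Regions without a miR-122 match as a whole held 95.6% ± 0.450 of KO counts and 75% ± 1.38 of control counts. Of those counts, the miR-103/miR-107 regions held 11.8% ± 0.970 in KO and 12.9% ± 0.473 in control livers, the opposite order.

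The share was also taken by position. The miR-103/miR-107 regions of 3′ UTRs held 3.34% ± 0.333 of KO counts (2.88 to 3.66%) and 2.13% ± 0.225 of control counts (1.76 to 2.33%), so the groups did not overlap, and the ratio of the means was 1.57. The 3′ UTR regions with neither match had about the same ratio, 1.53, with 30.2% ± 0.944 in KO and 19.7% ± 0.999 in control livers. In coding sequence, the miR-103/miR-107 regions held 3.84% ± 0.671 in KO and 3.89% ± 0.417 in control livers. The ratio in coding sequence was 0.989 for the miR-103/miR-107 regions and 0.930 for the regions with neither match.

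**Figure D2:**
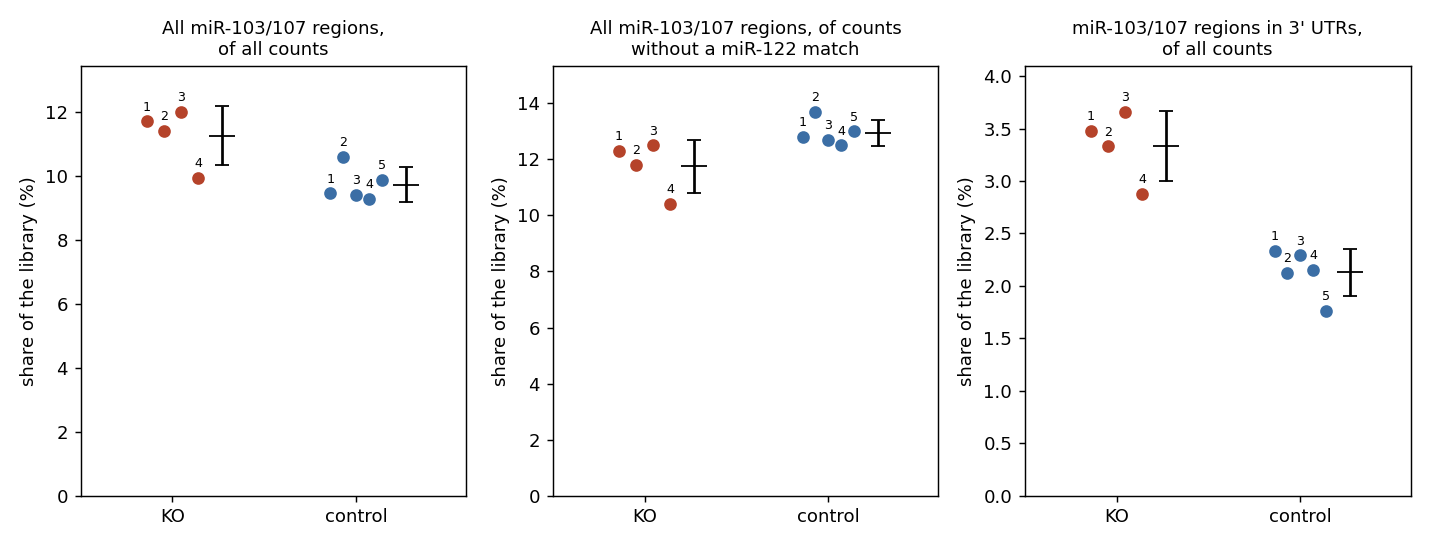
Percentage of each library held by miR-103/miR-107 regions, 1 point per library with its replicate number, beside the mean and SD of the 4 KO and 5 control livers. Of all counts (left) 3 KO livers lie above the controls, of counts without a miR-122 match (middle) the KO mean of 11.8% is below the control mean of 12.9%, and in 3′ UTRs (right) the 4 KO livers lie above all controls.

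Single regions were compared between the groups with edgeR's quasi-likelihood test, with sex as a term and p-values adjusted by Benjamini and Hochberg's method over the 17182 regions with enough counts. Of the 8598 miR-103/miR-107 regions, 1749 (20.3%) had enough counts, and a region may have reached the minimum through one group only. Of these, 411 rose and 154 fell in KO livers at an adjusted p under 0.05. That is 23.5% higher and 8.81% lower, where the whole table had 17.5% higher and 27.6% lower, and the regions without a miR-122 match had 21.3% higher and 13.2% lower. The rising share was thus close to that of the regions without a miR-122 match. The median log2 change (KO over control) was 0.40 over the miR-103/miR-107 regions, 0.26 over the 13915 regions without a miR-122 match and 0.03 over all regions tested. Scaling moved all of these medians together: that of the miR-103/miR-107 regions was 0.63 with upper quartile scaling, 0.17 with TMM factors (edgeR's composition scaling) taken from regions without a miR-122 match, and 0.13 above that of the latter regions in each case. With the upper quartile 582 were higher and 118 lower (33.3% and 6.75%, against 29.9% and 10.6% of the regions without a miR-122 match). With those TMM factors 277 were higher and 213 lower (15.8% and 12.2%, against 15.5% and 16.6%). With a minimum blind to group, a mean of 5 CPM, 3253 miR-103/miR-107 regions were tested and 14.9% rose, against 17.1% of those without a miR-122 match. Without control replicate 4 the count of rises was 238, or 16.1%, against 16.5% of the regions without a miR-122 match. Without KO replicate 4 it was 525, or 25%, against 22.9%. The share of the miR-103/miR-107 regions was also the lower one without control replicate 5 (17.7% against 18.4%). In the other fits with 1 library left out it was the higher one.

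The levels of the groups did not overlap in 292 miR-103/miR-107 regions with KO higher (16.7%) and in 97 with KO lower (5.55%). The same held in 17.4% and 10.2% of the regions without a miR-122 match, and in 14.4% and 24.0% of all regions tested. KO replicate 4 was at least 2 times the mean of the other KO livers in 48 of the 411 rising miR-103/miR-107 regions (11.7%). Among all rising regions without a miR-122 match this held for 815 of 2958 (27.6%). Of the 11 rising miR-103/miR-107 regions with no count in any control liver, 10 had such a ratio.

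Position in the transcript went with larger differences than site length did. In 3′ UTRs 242 of 653 tested regions rose and 26 fell (37.1% and 3.98%), with a median log2 change of 0.72. The 3′ UTR regions with neither match had 30.4% higher, 8.10% lower and a median of 0.51. In coding sequence 88 of 717 rose and 79 fell (12.3% and 11%, median 0.16), against 9.27% higher, 21.5% lower and a median of -0.08 for regions with neither match. In 5′ UTRs 27 of 170 rose and 34 fell (15.9% and 20%, median 0.20), against 12%, 23.7% and -0.16. The difference between the miR-103/miR-107 regions and the regions with neither match was not tested. Without control replicate 4 the 3′ UTR counts were 146 higher and 16 lower, and without KO replicate 1 the falls were 17. The balance in coding sequence turned with the scaling, with 146 higher and 61 lower under the upper quartile and 51 higher and 112 lower under TMM factors from regions without a miR-122 match. Without control replicate 4, control replicate 3 or KO replicate 1, the rises in coding sequence were 44, 50 and 58. Of the 5′ UTR regions whose letters are printed above, that of G3bp2 averaged 27.2 ± 11 CPM in KO and 20 ± 9.87 CPM in control livers (adjusted p = 0.0577) and that of Dbi 169 ± 49.6 and 146 ± 28 CPM (adjusted p = 0.377). In 5′ UTRs the falls were 22 without the sex term and 22 without control replicate 5, and the rises 15 without KO replicate 1.

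**Figure D3:**
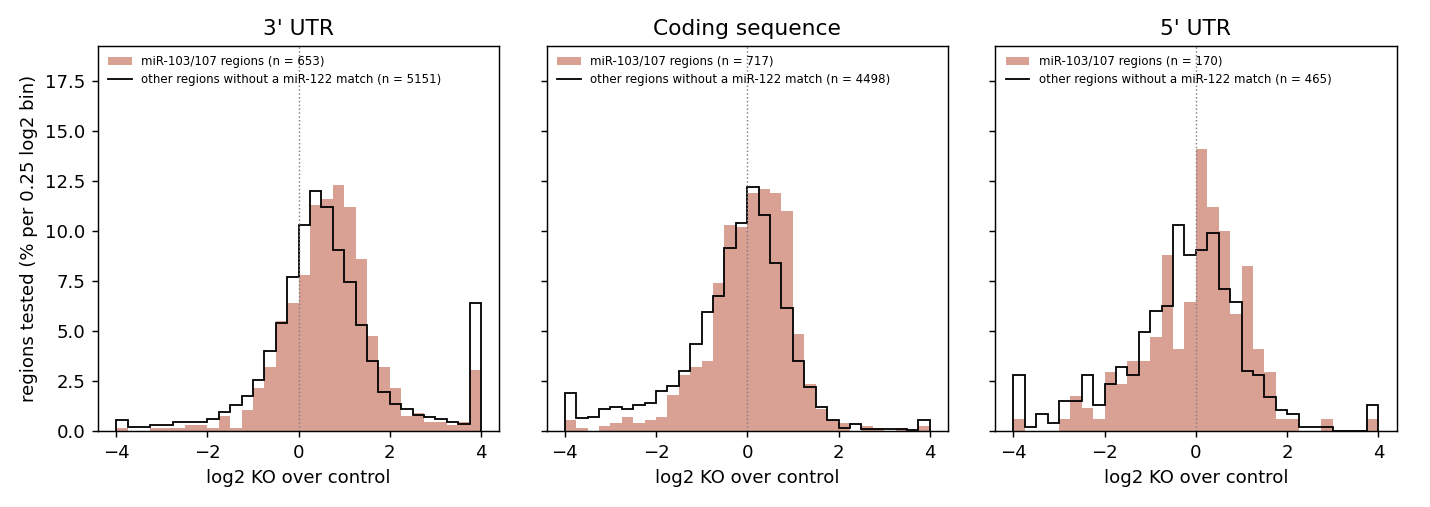
Log2 change (KO over control) of tested regions in 3′ UTRs, coding sequence and 5′ UTRs, as a percentage per bin; filled, miR-103/miR-107 regions; line, regions with neither a miR-122 nor a miR-103/miR-107 match; the end bins hold values beyond the axis. The medians of 0.72, 0.16 and 0.20 for miR-103/miR-107 regions lie to the right of 0.51, -0.08 and -0.16 for the others.

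The length of the match did not order the changes. Over the tested regions the median log2 change was 0.41 for 66 regions with an 8mer, 0.38 for 332 with a 7mer-m8, 0.31 for 251 with a 7mer-A1 and 0.40 for 1100 with a 6mer. In 3′ UTRs the medians were 0.70, 0.70, 0.96 and 0.69 in the same order. The share that rose was 25.8% for 8mer, 23.5% for 7mer-m8, 24.7% for 7mer-A1 and 23.1% for 6mer regions. By conservation of 3′ UTR sites, the median was 0.75 for the 344 regions scoring 1 or more and 0.69 for the 308 below that.

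A miR-15/16 match beside the miR-103/miR-107 match made little difference in 3′ UTRs. There, 207 regions with miR-103/miR-107 alone had a median of 0.74 (74 rose, 9 fell), 446 with both families 0.71 (168 rose, 17 fell) and 203 with miR-15/16 alone 0.40 (54 rose, 16 fell). In coding sequence the order was another, with medians of -0.12 for 230 regions with miR-103/miR-107 alone, 0.27 for 487 with both and -0.09 for 237 with miR-15/16 alone. None of these differences between classes was tested.

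AGO-bound counts follow both the amount of an RNA and how much of it is bound, so each miR-103/miR-107 region was set beside the other regions of its gene that held neither match. This was possible for 1525 regions in 1267 genes. The median log2 change was 0.38 for the miR-103/miR-107 regions and 0.28 for the summed other regions, with a median difference of 0.11 (quartiles -0.40 and 0.61). In 78.6% of the pairs the values lay within 1 log2 unit of each other. In 3′ UTRs the medians were 0.70 and 0.43, and the miR-103/miR-107 region was above the rest of its gene in 411 of 616 cases (66.7%). In coding sequence both medians were 0.14, with 334 of 674 regions above (49.6%).

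The comparison was also made with partners from one part of the transcript, for the fewer regions that had one. Against tested 3′ UTR regions of the same gene, the 393 miR-103/miR-107 regions that had such a partner had a median difference of 0.15 and 58.5% were above. Against tested coding regions of the same gene, the difference was 0.57 for 262 regions and 75.2% were above. In coding sequence the median difference was 0.12 against coding regions (456 regions) and -0.34 against 3′ UTR regions (382 regions). Both comparisons within one part of the transcript had quartiles on either side of 0, at -0.34 and 0.62 for the 3′ UTR and -0.37 and 0.61 for coding sequence.

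**Figure D4:**
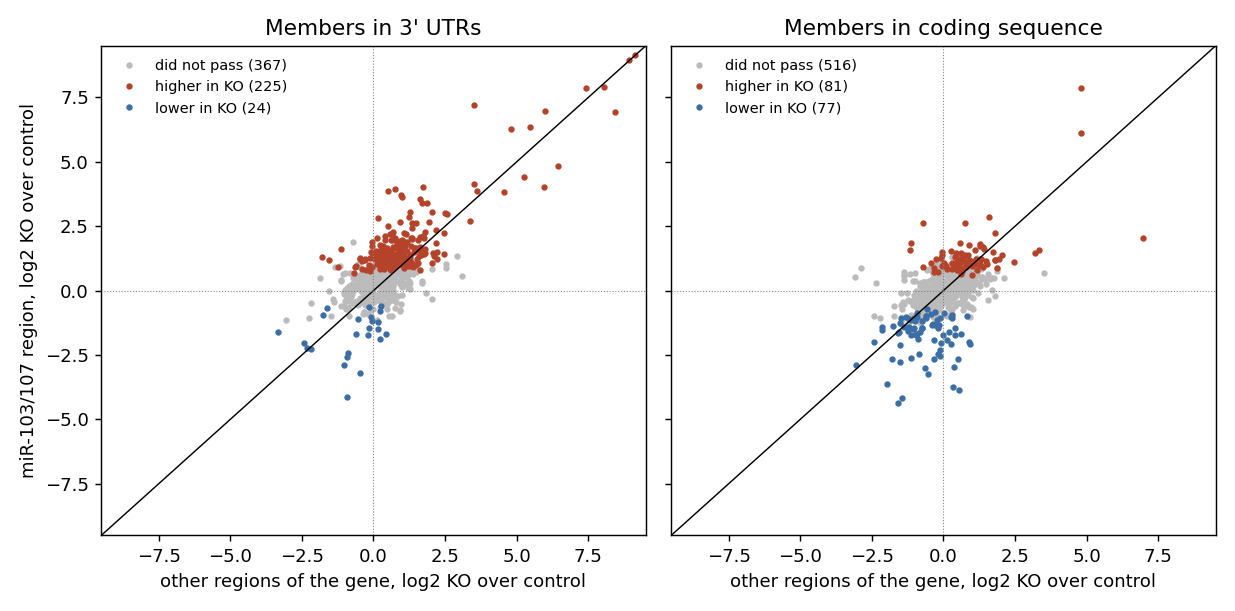
Log2 change (KO over control) of each miR-103/miR-107 region (vertical) against that of the other regions of its gene with neither match (horizontal), in 3′ UTRs (left) and coding sequence (right); the line marks equal values and colours mark the test of the region. In 3′ UTRs 66.7% of the points lie above the line and in coding sequence 49.6%.

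The 10 miR-103/miR-107 regions with the highest mean level held RNAs made in quantity by hepatocytes, together with H19. The 10 with most counts took 16.7% of all counts in miR-103/miR-107 regions. H19 is an imprinted non-coding RNA of fetal liver. Its 8mer region (chr7:142576205-142576274, mm10, minus strand) held 6029, 5727, 4908 and 4727 CPM in KO livers. In control livers it held 28.2, 132, 22.0, 75.2 and 326 CPM. Every KO liver lay above every control, and control replicate 5 was the highest of the controls. The fitted change was 5.43 on the log2 scale (SE 0.58, adjusted p = 1.2e-06), 6.38 without control replicate 5 and 4.68 without KO replicate 1. A second H19 region, with a 6mer shared with miR-15/16 (chr7:142576420-142576489), averaged 3143 ± 446 CPM in KO and 38.9 ± 31.2 CPM in control livers and rose by 6.27 (7.14 without control replicate 5). The other regions of H19 with neither match rose together by 4.15 over 7 regions.

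The remaining abundant regions did not rise. That of Sephs2, which makes the selenium donor for selenoproteins (coding sequence, 5 sites, chr7:127272600-127272669, minus strand), held 2075, 1840, 1739 and 1430.3 CPM in KO livers. Control livers held 2702, 3306, 2647, 2254 and 2262 CPM. All KO livers lay below all controls, but the region did not pass (log2 -0.51, SE 0.24, adjusted p = 0.0933), although it passed with DESeq2, with TMM factors from regions without a miR-122 match and without the sex term (adjusted p = 0.0214, 0.0231 and 0.0483). In Alb, the serum albumin gene, a region with a 6mer in coding sequence (chr5:90468590-90468659, plus strand) averaged 1254 ± 326 CPM in KO and 1729.6 ± 593 CPM in control livers, and one with a 7mer-A1 (chr5:90472448-90472517) averaged 1224 ± 384 and 1519.7 ± 346 CPM. The groups overlapped in both, with log2 changes of -0.17 and -0.15 (adjusted p = 0.593 and 0.639), and both changes turned positive with the upper quartile.

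The other abundant regions lay at the 5′ end of major urinary protein genes, whose products carry pheromones in urine. These genes are near-identical copies on chromosome 4, so reads can be split between them and the level of each is uncertain. The regions of Mup2, Mup17 and Mup9, with 3 sites each, averaged 1900.2 ± 828, 1886 ± 804 and 1844 ± 805 CPM in KO livers and 2489.7 ± 626, 2485 ± 644 and 2455 ± 594 CPM in control livers. None passed (adjusted p from 0.13 to 0.153), and without KO replicate 4 all 3 fell (adjusted p = 0.0107, 0.00895 and 0.00827). The Mup11 region (4 sites, chr4:60662256-60662325, minus strand) held 92.4, 239.7, 1020 and 416 CPM in KO livers. Control livers held 303, 2639.5, 1464, 1511 and 2168 CPM. The groups overlapped, and the region fell by 2.52 on the log2 scale (SE 0.66, adjusted p = 0.00454), with log2 changes of -1.74 without KO replicate 1 and -3.11 without control replicate 4. A region to which the file gives no gene (chr4:60821374-60821443, minus strand, over Mup22 in the RefSeq table) fell as well (log2 -2.57, and -1.80 without KO replicate 1).

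Among regions whose groups did not overlap, the 8 rises with the smallest p-values lay in 5 genes, and growth factors held 4 of them. Igf2 encodes the fetal insulin-like growth factor and neighbours H19 on chromosome 7. Its coding region with a 7mer-A1 (chr7:142655731-142655800, mm10, minus strand) held 499.8, 283, 156 and 144 CPM in KO livers, against 4.23, 4.49, 3.52, 0.855 and 9.4 CPM in control livers. KO replicate 1, the female, was the highest, and the change of 6.11 (SE 0.44, adjusted p = 2.5e-08) was 5.42 without that liver and 7 without control replicate 5. The 3′ UTR region of Igf2 (chr7:142652748-142652817) held 99.4, 73.1, 43 and 39.2 CPM in KO livers. In control livers it had 3 counts in all, a count ratio of 92.5 (exact 95% interval 31.3 to 452, counting error only). The fitted change of 6.27 was 4.91 without KO replicate 1 and 7.45 without control replicate 5. The 5′ UTR region of Igf2 averaged 285 ± 69.1 CPM in KO and 7.85 ± 10.9 CPM in control livers and rose by 5.17, or by 6.69 without control replicate 5 and by 4.21 without KO replicate 1. The other 13 regions of Igf2 rose together by 4.81.

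Hgf encodes hepatocyte growth factor, the ligand of the receptor Met. Its 3′ UTR region (7mer-m8 shared with miR-15/16, chr5:16619276-16619345, plus strand) held 50.7, 66.3, 86.9 and 55.5 CPM in KO livers, against 12.7, 6.73, 8.79, 7.69 and 9.4 CPM in control livers. Every KO liver lay well above the controls (log2 2.68, SE 0.32, adjusted p = 4.1e-06), and the other regions of the gene changed by 0.92. Tm4sf4 encodes a membrane protein of the tetraspanin-like family. Its 5′ UTR region (2 sites, chr3:57425504-57425701) averaged 65 ± 9.01 CPM in KO and 8.36 ± 3.23 CPM in control livers and rose by 2.88 (SE 0.33, adjusted p = 2.2e-06), beside 2.02 for its other 5 regions. App encodes the amyloid precursor protein. Its 3′ UTR region (chr16:84954765-84954834) held 61.6, 71.1, 84.1 and 216 CPM in KO livers, against 7.05, 2.24, 4.4, 5.13 and 5.37 CPM in control livers, and rose by 4.15 (SE 0.52, adjusted p = 5.8e-06). KO replicate 4, the liver with the most neuron marker counts, was the highest. The 15 regions of App with neither match changed by 3.50 together. A coding and a 5′ UTR miR-103/miR-107 region of App changed by 0.67 and 0.13 and did not pass.

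The 8 falls with the smallest p-values lay in 8 genes, of which Cps1, Otc, Hadh and Scd1 encode metabolic enzymes. Cps1 and Otc catalyse the first steps of the urea cycle. The 8mer region in the Cps1 3′ UTR (chr1:67230378-67230447, plus strand) held 76.5, 40, 40.2 and 14.7 CPM in KO livers, against 345, 401, 522, 415 and 352 CPM in control livers. The groups were far apart (log2 -3.20, SE 0.30, adjusted p = 3.3e-07), and the summed other 55 regions of Cps1 changed by -0.48. The 7mer-A1 region in Otc coding sequence (chrX:10303328-10303397) averaged 7.66 ± 4.24 CPM in KO and 89.1 ± 26.6 CPM in control livers, with a log2 change of -3.62, and the other 9 regions of that gene changed by -1.97.

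Hadh encodes an enzyme of mitochondrial fatty acid oxidation. Its 5′ UTR region (chr3:131271971-131272040, minus strand) held 15.9, 10.7, 4.67 and 6.53 CPM in KO livers, against 217, 314, 226, 76.1 and 99.3 CPM in control livers (log2 -3.81, SE 0.33, adjusted p = 1.4e-07). That region also held a match to miR-122-3p, the other arm of the deleted precursor, as did those of Mid1ip1 and Atp13a3. Such a match stood in 54 miR-103/miR-107 regions (0.628%) and in 0.944% of the regions with neither match. The Hadh and Atp13a3 regions held miR-15/16 matches too, and the Hadh region miR-130/301 and miR-148/152 matches. The part of any family in these falls was not tested. Mid1ip1, which promotes the assembly of acetyl-CoA carboxylase, averaged 4.1 ± 2.34 CPM in KO and 68.2 ± 11.6 CPM in control livers in its 3′ UTR region. Atp13a3, a transport ATPase, averaged 3.92 ± 2.36 and 43.7 ± 10.9 CPM in coding sequence, and its other 17 regions changed by 0.33. Scd1, the stearoyl-CoA desaturase, had a coding region (chr19:44406522-44406660) of 13.0 ± 1.98 CPM in KO and 97.0 ± 25.3 CPM in control livers, with a log2 change of -2.88 beside -3.07 for its other 19 regions.

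The coding region of Srrm2, a protein of nuclear speckles (chr17:23808383-23808452, plus strand), stood against its gene. It held 8.94, 7.8, 6.54 and 11.4 CPM in KO livers, against 179, 123, 138, 101 and 109 CPM in control livers, a log2 change of -3.85 (SE 0.33, adjusted p = 1.2e-07). The other 18 regions of Srrm2 changed by 0.56. The coding region of H2-Q10, a secreted class I histocompatibility antigen of liver, averaged 8.89 ± 7.04 CPM in KO and 176 ± 25.2 CPM in control livers, a log2 change of -4.36 (-4.95 without KO replicate 4). H2-Q10 belongs to a family of similar genes, so its counts are uncertain.

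**Figure D5:**
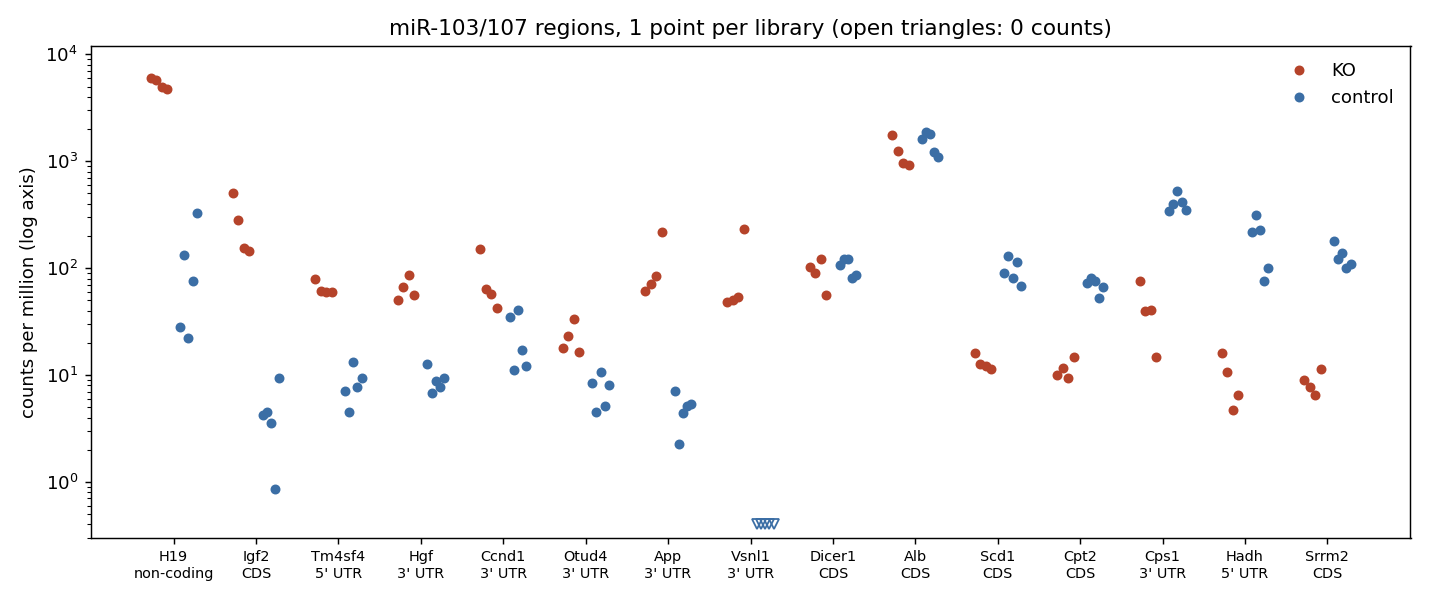
Level in CPM (log axis) of 15 miR-103/miR-107 regions, 1 point per library, the 4 KO livers left of the 5 control livers in each pair; open triangles mark libraries without a count. H19 to Vsnl1 lie higher in KO livers, the regions of Dicer1 (8mer in coding sequence) and Alb overlap between the groups, and Scd1 to Srrm2 lie lower in KO livers.

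Of the 11 rising regions with no control count, 4 are described here. They were regions of Vsnl1 and Hpcal4, which encode neuronal calcium sensors, Gnao1, a G protein of brain, and the imprinted non-coding RNA Meg3. The Vsnl1 3′ UTR region (chr12:11325989-11326058, minus strand) held 48.7, 50.7, 53.2 and 233 CPM in KO livers and was at least 135-fold higher, against a floor of 3 counts over the control group (0.713 CPM), or at least 71.3-fold without KO replicate 4. The Meg3 region was at least 59.1-fold, Gnao1 55-fold and Hpcal4 53-fold higher, and without KO replicate 4 these limits were 35.3, 35.2 and 34.8. On the log2 scale the fitted changes were 9.16, 7.95, 7.91 and 7.86 for the regions of Vsnl1, Meg3, Gnao1 and Hpcal4. The other regions of these genes with neither match changed by 9.12, 9.39, 8.04 and 7.42 in the same order. KO replicate 4, the liver with the most neuron marker counts, stood at 3.09 to 4.59 times the average of KO replicates 1 to 3 across these 4 regions. Their adjusted p-values ran from 3.9e-05 to 8.3e-05. No falling miR-103/miR-107 region had under 3 counts in KO livers.

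Of genes reported as targets of the family, the 16 listed held 18 miR-103/miR-107 regions in 10 genes. Of these 4 were tested, 1 rose and none fell, too few to set apart from the 23.5% of all tested miR-103/miR-107 regions that rose. Cav1, the caveolin through which the family is linked to insulin receptors, held none. The 8mer region in Dicer1 coding sequence (chr12:104702967-104703155, minus strand, phyloP 2.76) held 102, 90.6, 123 and 55.5 CPM in KO livers. Control livers held 106, 121, 120.5, 80.3 and 85.9 CPM. The groups overlapped (log2 -0.08, SE 0.25, adjusted p = 0.825), and the sign of the change turned with the scaling. The Dicer1 3′ UTR region with a 7mer-A1 averaged 13.5 ± 6.12 CPM in KO and 9.27 ± 1.20 CPM in control livers (adjusted p = 0.337). The coding region of Arnt, the partner of hypoxia-inducible factors, averaged 12.5 ± 4.55 and 17.5 ± 5.98 CPM (adjusted p = 0.372). The 3′ UTR region of Fbxw7, which selects substrates for a ubiquitin ligase (chr3:84978324-84978393, plus strand), held 13.9, 28.3, 25.2 and 13.1 CPM in KO livers, against 4.23, 13.5, 7.92, 7.69 and 9.4 CPM in control livers. The groups overlapped slightly, the region rose by 1.09 (SE 0.41, adjusted p = 0.0393), and the call was lost without any 1 of KO replicates 2 and 3 and control replicates 1, 3, 4 and 5 (adjusted p from 0.0586 to 0.198). The other 6 regions of Fbxw7 changed by 1.57, more than this region.

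Coenzyme A synthesis, the pathway of the host genes, held 4 miR-103/miR-107 regions, in Coasy, Ppcs and Slc25a42 and none in a pantothenate kinase gene. The 2 tested did not pass. Coasy, the last enzyme of the pathway, averaged 11.9 ± 4.18 CPM in KO and 18.4 ± 7.19 CPM in control livers (adjusted p = 0.322), and Slc25a42, which carries coenzyme A into mitochondria, averaged 11.6 ± 3.97 and 9.78 ± 4.23 CPM (adjusted p = 0.761). Insulin signalling genes held 31 miR-103/miR-107 regions in 20 of 30 genes. Of these 3 were tested and 1 rose, too few to set apart from the 23.5% of all tested miR-103/miR-107 regions that rose. The 3′ UTR region of Pik3r1, the regulatory subunit of phosphoinositide 3-kinase (chr13:101681082-101681151, minus strand), held 20.9, 32.2, 32.7 and 35.9 CPM in KO livers, against 11.3, 13.5, 17.6, 13.7 and 4.03 CPM in control livers. The groups did not overlap (log2 1.25, SE 0.42, adjusted p = 0.0218), while the other 20 regions of Pik3r1 changed by 0.10. The call was lost without control replicate 4 or 5 (adjusted p = 0.0825 and 0.103), and without KO replicate 1 the change was 1.84. Regions of the kinase Rps6kb1 (14.5 ± 6.57 CPM in KO, 16.1 ± 10.2 CPM in control livers) and of the receptor Igf1r (13.2 ± 2.84 and 11.5 ± 5.99 CPM) did not pass (adjusted p = 0.544 and 0.727).

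Genes of the microRNA machinery itself held 28 miR-103/miR-107 regions in 12 of 19 genes. Of 14 tested, 3 rose, none fell and 11 did not pass, with a median log2 change of 0.76. The count of rises is near the share in regions without a miR-122 match, 21.3%. Tnrc6c encodes a protein that links AGO to the deadenylases. Its coding region with a 7mer-m8 (chr11:117722777-117722846, plus strand) held 102, 81.9, 92.5 and 50.6 CPM in KO livers, against 45.1, 53.8, 41.3, 29.9 and 38.9 CPM in control livers (log2 1.06, SE 0.25, adjusted p = 0.00214), and the other 17 regions of Tnrc6c changed by 0.30. KO replicate 4 lay within the control range. Ddx6, a helicase of translational repression, rose in a 5′ UTR region where the groups did not overlap, with 20 ± 6.1 CPM in KO and 7.37 ± 1.42 CPM in control livers (adjusted p = 0.00659, and 0.125 without KO replicate 1), and its other 12 regions changed by 0.46. The 8mer region in the 3′ UTR that the file names Ago2 (chr15:73096832-73096901, minus strand, past the end of the gene in the RefSeq table) held 15.9, 20.5, 16.8 and 4.9 CPM in KO livers and 7.05, 11.2, 6.16, 6.84 and 2.68 CPM in control livers. It rose by 1.21 (adjusted p = 0.0421), a call lost without control replicate 1 or 5 (adjusted p = 0.0712 and 0.118), and the other 21 regions of the gene changed by 0.81. In Tnrc6a a 3′ UTR region averaged 41.6 ± 13.1 CPM in KO and 24.6 ± 5.21 CPM in control livers, with an adjusted p of 0.0575.

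Cell cycle genes held 15 miR-103/miR-107 regions in 10 of 17 genes, and all 4 that were tested rose. All 4 lay in 3′ UTRs, where 37.1% of miR-103/miR-107 regions and 30.4% of those with neither match rose, and had a miR-15/16 match as well. With TMM factors from regions without a miR-122 match, E2f3, Ccnt2 and Cdc25a did not pass (adjusted p = 0.0761, 0.0582 and 0.0901). The region of Ccnd1, cyclin D1 (7mer-m8, chr7:144930389-144930458, minus strand), held 151, 63.3, 57.9 and 42.5 CPM in KO livers, against 35.2, 11.2, 40.5, 17.1 and 12.1 CPM in control livers. KO replicate 1 was the highest and the groups did not overlap (log2 1.99, SE 0.32, adjusted p = 6.4e-05). The region also overlaps LTO1 by position. The strand of LTO1 was not compared, so whether reads could stem from that gene was not settled. The other 10 regions of Ccnd1 changed by 1.34. The transcription factor E2f3 averaged 38.1 ± 10.7 CPM in KO and 21.0 ± 1.66 CPM in control livers (adjusted p = 0.0195). Ccnt2, a cyclin of transcription elongation, averaged 17.4 ± 2.09 and 7.14 ± 1.37 CPM (adjusted p = 0.0201), and the phosphatase Cdc25a averaged 27.9 ± 6.03 and 11.1 ± 6.91 CPM (adjusted p = 0.0353). The other regions of these 3 genes changed by 0.57, 0.93 and 1.14, beside 0.85, 1.15 and 1.11 for the regions named. Leaving out 1 library ended the call of E2f3 (KO replicate 1, control replicate 3 or 4, adjusted p from 0.0575 to 0.105), of Ccnt2 (KO replicate 1 or control replicate 4, 0.0726 and 0.0578) and of Cdc25a (KO replicate 1 or control replicate 1, 2 or 5, from 0.0513 to 0.328).

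Wnt and growth signalling genes held 15 miR-103/miR-107 regions in 11 of 16 genes. Of these 2 were tested and 1 rose, too few to set apart from the 23.5% of all tested miR-103/miR-107 regions that rose. Smad7, an inhibitor of TGF-β signalling, had a 3′ UTR region of 369.6, 205, 285 and 124 CPM in KO livers and 169, 233, 158, 111 and 63.1 CPM in control livers. The groups overlapped, and the region rose by 1.05 with the sex term (SE 0.27, adjusted p = 0.00353) but did not pass without it (0.70, adjusted p = 0.0910). The other 7 regions of Smad7 changed by 0.94. The region of Lrp6, a Wnt co-receptor, averaged 20.3 ± 9.32 CPM in KO and 31.8 ± 13.4 CPM in control livers (adjusted p = 0.356).

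Lipid and glucose metabolism showed falls only among what passed. The 30 listed genes held 39 miR-103/miR-107 regions in 21 genes, of which 15 were tested, 5 fell and none rose, with a median log2 change of -1. Of all tested miR-103/miR-107 regions 8.81% fell, of regions without a miR-122 match 13.2%, and of all regions 27.6%. Besides the Scd1 region given above, the 8mer region in the coding sequence of Cpt2, which releases fatty acids for oxidation inside mitochondria (chr4:107907515-107907584, minus strand), held 9.94, 11.7, 9.34 and 14.7 CPM in KO livers, against 73.3, 80.7, 75.6, 52.1 and 67.1 CPM in control livers. The groups were far apart (log2 -2.61, SE 0.33, adjusted p = 5.9e-06), and the other 9 regions of Cpt2 changed by -1.15. Fasn, the fatty acid synthase, fell in a coding region (5.14 ± 1.9 CPM in KO, 20.4 ± 3.31 CPM in control livers) and in a 3′ UTR region (4.93 ± 1.67 and 22.1 ± 7.12 CPM), beside a change of -2.43 in its other 24 regions. Insig1, which holds the sterol sensor in the endoplasmic reticulum, fell by 1.61 (adjusted p = 0.00476), with 9.69 ± 8.07 CPM in KO and 33.8 ± 15.4 CPM in control livers. A second Scd1 region, in the 3′ UTR, averaged 6.84 ± 2.98 and 13.9 ± 4.98 CPM and did not pass (adjusted p = 0.0569). Over all regions of the listed genes, with or without a miR-103/miR-107 match, the sum was 7329 to 11679 CPM in KO and 12060.1 to 18647 CPM in control livers.

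The most conserved 8mer sites of 3′ UTRs were read one by one, since they are the longest matches. Of the 6 with the highest phyloP at a mean of at least 10 CPM, which include the Ago2 region, 3 rose and 3 did not pass. Among all 28 tested 3′ UTR regions with an 8mer 9 rose (32.1%), beside 30.4% of 3′ UTR regions with neither match. The 6 are too few to be set apart from that. Otud4, a deubiquitinase (chr8:79677580-79677649, plus strand), held 17.9, 23.4, 33.6 and 16.3 CPM in KO livers, against 8.46, 4.49, 10.6, 5.13 and 8.05 CPM in control livers. The groups did not overlap (log2 1.49, SE 0.41, adjusted p = 0.00654, and 0.0651 without control replicate 4), and its other 18 regions changed by 0.13. The ubiquitin ligase Rnf19a averaged 33.2 ± 9.91 CPM in KO and 15 ± 4.83 CPM in control livers (adjusted p = 0.0385), a call lost without any 1 of KO replicates 1 and 2 and control replicates 1, 4 and 5 (adjusted p from 0.0541 to 0.122), and its other 10 regions changed by 0.73. The chromatin remodeller Chd1 averaged 219.9 ± 49.2 and 148 ± 28.7 CPM (adjusted p = 0.0734), the ubiquitin ligase Znrf2 14.4 ± 5.72 and 7.54 ± 4.61 CPM (adjusted p = 0.222), and the nuclear envelope protein Sun2 10.7 ± 4.87 and 15.1 ± 5.89 CPM (adjusted p = 0.449).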

How the data were processed

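AGO CLIP-seq libraries of 9 mouse livers were compared. The deposited table gives whole-number read counts per bound region, 1 row per seed match (143524 rows), in mm10 coordinates; the authors aligned reads with Bowtie2, per the submitters' processing notes. The labels do not state how regions were called or duplicates handled. The deposited phyloP score is the authors' mean over the 6mer. Rows were reduced to 92645 unique regions. Counts were filtered (filterByExpr), TMM-scaled and tested with edgeR 4.0.16 (R 4.3.3) by genotype with sex as a term, as one fit over 17182 regions, tested on simulated data. DESeq2 1.42.0, other scalings, filters, covariates and leave-one-out fits were the alternatives. CPM are per library total, so their ratios differ from the TMM-based changes. Intervals and floors cover counting error only. The members, gene lists and naming rule (highest levels, smallest p-values with groups apart, fewest counts, listed genes, conserved 8mers) were chosen with earlier results of these data known. KO and control livers of equal replicate number did not deviate together (correlations of deviations from -0.09 to 0.00). That cannot settle whether the mice were paired, which the labels do not state. One named region is not reported here.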

Additional observations from a re-analysis of the deposited data

Results flagged for a closer look

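In 8 of 115 groups of libraries (the KO and the control group of each of the 60 named regions, without those at 0 throughout), the highest liver stood apart from the rest of its group. That is 6.96%. The rule flags 1 in 20 by chance in independent groups. These groups share 9 libraries and their regions were partly chosen by level or p-value, so the share cannot be judged against that rate. Of the 8 flagged, 5 were KO replicate 4, the liver with 8301 CPM of neuron markers. It held 216 CPM in the App region, 233 in Vsnl1, 93.1 in Meg3, 81.6 in Gnao1 and 76.7 in Hpcal4, while the next KO livers held 84.1, 53.2, 29.2, 29.9 and 26.2 CPM. KO replicate 1 held 78.5 CPM in the Tm4sf4 region, with 61.4 CPM in the next KO liver. Among controls, replicate 5 held 26.8 CPM in the Igf2 5′ UTR region, with 6.73 CPM in the next, and replicate 1 held 24.0 CPM in the E2f3 region, with 20.5 CPM in the next. The causes were not tested.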

How the results depend on the processing

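Of 60 named regions, 39 passed, and 29 of these passed in the same direction under all 17 other settings that tested them. No region that passed changed sign. Without a filter on low counts, 264 miR-103/miR-107 regions fell and 809 rose of 8598; the share that rose, 9.41%, was then below the 13.3% of regions without a miR-122 match, where with the filter it was 23.5% against 21.3%, and the medians differed by 0.01. With the filter, among 649 tested 7mer and 8mer regions 58 fell and 157 rose (8.94% and 24.2%). Among 541 tested regions without a miR-15/16 match 58 fell and 120 rose (10.7% and 22.2%). Over regions without a miR-122 match 13.2% fell and 21.3% rose. Leaving out 1 library gave 112 to 189 falls, 238 to 525 rises, medians of 0.34 to 0.51, differences from the rest of the gene of 0.07 to 0.15 and share differences of 1.28 to 1.99 percentage points. The share difference, 1.54 points of all counts, was -1.17 points of counts without a miR-122 match, 0.42 for 7mer and 8mer regions and 0.71 outside H19, a setting chosen after seeing the data. With replicate number as a block 170 fell and 343 rose (19.6%, against 20.5% of regions without a miR-122 match). The median was then 0.28, beside 0.27 for regions without a miR-122 match. The calls of Ago2 (0.82, adjusted p = 0.207), E2f3 and Smad7 were lost with the block, and the labels do not say that equal numbers pair livers. TMM factors from regions without a miR-122 match ended the calls of Fbxw7, Pik3r1, Ago2, E2f3, Ccnt2, Cdc25a and Rnf19a. Some changes that did not pass turned sign. Alb was at 0.05 and 0.07 and Dicer1 at 0.16 with the upper quartile, Dicer1 was at 0.01 with library totals, Slc25a42 at -0.02 and Igf1r at -0.00066 with those TMM factors, and Rps6kb1 at -0.09 without the sex term and -0.43 with the block. Leaving out 1 library gave -0.27 to 0.03 for Alb, -0.95 to 0.14 for Arnt, -0.24 to 0.10 for Dicer1, -0.13 to 0.81 for Slc25a42, -0.15 to 0.56 for Igf1r and -0.96 to 0.06 for Sun2. The causes were not tested. Depth limits the reading, since a median region had 29 counts over 9 libraries.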

Other observations

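Among other genes, miR-103/miR-107 regions of stellate cell and fibroblast markers numbered 16, of which 3 were tested and 2 rose, with a median log2 change of 1.41. Of the 16 in hepatocyte markers, 11 were tested and 2 fell (median -0.22). Among all tested regions without a miR-122 match 21.3% rose and 13.2% fell, and these list counts are too small to be set apart from that. The 9 in endothelial markers had 4 tested, and none passed. In long non-coding RNAs 12 of 20 tested miR-103/miR-107 regions rose and none fell (60.0%), beside 56.6% of those with neither match. The 10-site region of Pcolce shown above, in a gene of collagen maturation, held 72.5, 37.0, 57.0 and 27.8 CPM in KO livers and 14.1, 24.7, 21.1, 15.4 and 16.1 CPM in control livers, and rose by 1.51 (adjusted p = 0.000471); it was chosen after its values were seen. Regions with 3 or more miR-103/miR-107 sites had a median of 0.18, with 17 of 106 higher and 21 lower, and those with 1 site 0.41, with 358 of 1449 higher and 111 lower.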
